A study of Mus musculus with 6 samples.

Results

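Amino acid transporters are the membrane carriers through which cells take up, export and exchange amino acids and related small molecules. The genes described here are those on the array whose symbol begins with Slc1a, Slc3a, Slc6a, Slc7a, Slc36a, Slc38a or Slc43a and that have a probe set (the group of probes that reads 1 gene) paired with that symbol only. Each gene was followed through the brightest such probe set by its mean over all 6 arrays. The rule found 64 genes of the 19938 on the array that have such a probe set. Of these, 62 encode carriers or their heavy chains, and 2, *Slc7a6os* and *Slc6a19os*, are named for lying on the opposite strand of a carrier gene and are not themselves transporters. Probe sets paired with several symbols were not read for the members.

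The RNA came from bone marrow-derived macrophages (BMMs), read on Affymetrix Mouse Gene 1.0 ST arrays and grown from the tibiae of 9-week-old mice with M-CSF. The rGDF11 group received 100 ng/ml recombinant GDF11, a secreted protein of the TGF-β superfamily, for 24 h. The control group received vehicle for the same time. Both groups were kept in M-CSF (100 ng/ml) together with RANKL (50 ng/ml), the cytokine that turns macrophages into osteoclasts, so the control cells had also been given the osteoclast signal. The mice are described in the study's methods as female C57BL. Each group had 3 samples labelled as biological replicates with 1 array each, but no source used here says that they were separate mice. The p-values therefore measure the spread between these samples, which may be technical. Values are log2 expression values made by the authors with the robust multichip average (RMA). Groups were set against each other by limma, whose p-values were adjusted over 23410 probe sets by the Benjamini-Hochberg method. The words rose and fell are kept for genes with an adjusted p under 0.05. A fold change is that of rGDF11 over control.

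The carriers fall into families with different ways of moving their cargo. Slc1a proteins use sodium to take up glutamate or small neutral amino acids, and Slc6a proteins use sodium and chloride to take up neurotransmitters, osmolytes, creatine and some amino acids. Slc7a proteins are either uniporters of cationic amino acids or light chains that exchange one amino acid for another, and most light chains reach the surface only when joined to a heavy chain of the Slc3a family. Some Slc36a carriers couple transport to protons. Slc38a carriers move glutamine and other small neutral amino acids with sodium, and Slc43a carriers work without ion coupling. In macrophages these proteins supply arginine for nitric oxide and polyamines, cystine for glutathione, and the leucine, glutamine and arginine that the kinase complex mTORC1 senses at the lysosome.

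Among the 64 genes, 13 rose with rGDF11, 3 fell and 48 did not pass the test. The share that rose was 20.3%, beside 7.49% of all genes, and the share that fell was 4.69%, beside 9.13% of all genes. The median log2 fold change was 0.11 over the members and 0.03 over all genes. At the fold change of 1.5 and unadjusted p under 0.01 that the study's methods set, 6 members were higher, *Slc7a2*, *Slc7a11*, *Slc6a4*, *Slc36a2*, *Slc6a8* and *Slc1a5*, and 1 was lower, *Slc6a12*. At that threshold 2.13% of all genes were higher and 3.06% were lower. The calls lay mostly among brighter probe sets. Of 36 members with a mean at or below the median of the tested probe sets, a log2 level of 6.15, 1 fell and 35 did not pass, with log2 fold changes of −0.32 to 0.26. Among all genes at or below that level 2.53% rose and 2.1% fell, and among genes above it 12.5% rose and 16.2% fell. *Slc36a2* lay above that level only through the rGDF11 arrays.

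**Figure D1:**
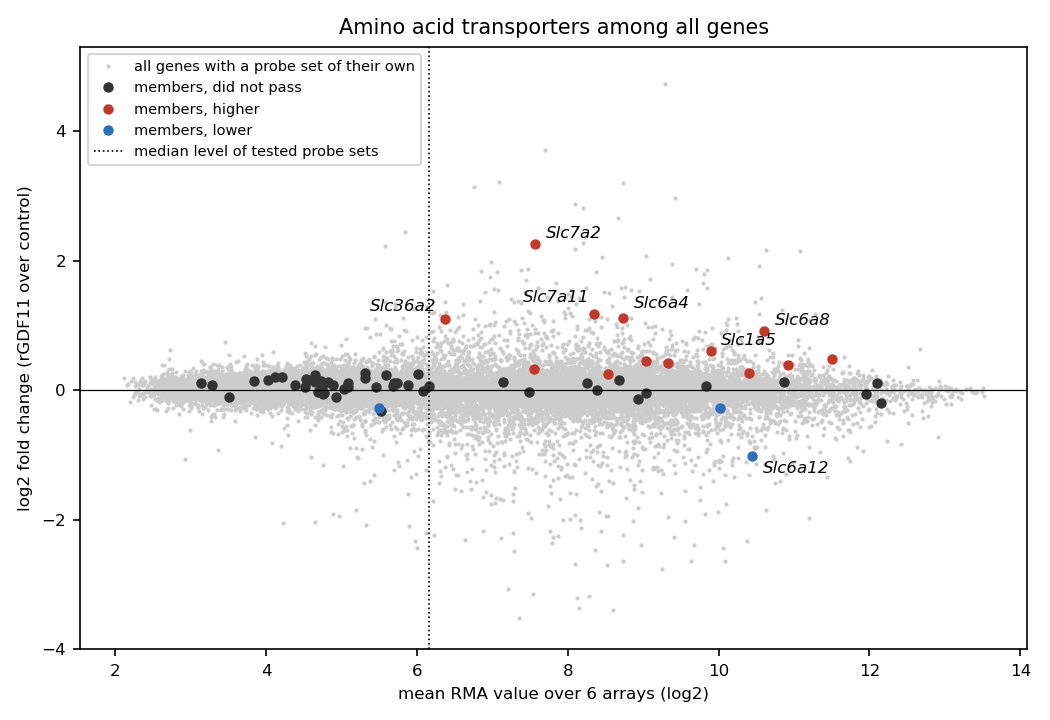
Log2 fold change (rGDF11 over control, vertical axis) against the mean RMA value over 6 arrays (log2, horizontal axis), 1 point per gene. Grey points are all 19938 genes, red members rose, blue members fell and black members did not pass limma's test. The dotted line is the median level of the tested probe sets, 6.15, and *Slc7a2* stands highest among the members, at 2.25.

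Of 15 Slc7a carriers 5 rose, *Slc7a2*, *Slc7a11*, *Slc7a5*, *Slc7a6* and *Slc7a1*, and 10 did not pass. The share that rose was 33.3%, beside 7.49% of all genes. *Slc7a2* (probe set 10571444) encodes CAT2, which brings arginine, lysine and ornithine into macrophages. Its log2 values were 8.68, 8.70 and 8.69 on the rGDF11 arrays, against 6.60, 6.31 and 6.41 on the control arrays. The rGDF11 arrays thus lay within 0.02 of each other and more than 2 log2 units above the brightest control array. The fold change was 4.77 (log2 fold change 2.25, standard error 0.08, limma adjusted p = 5.65e-06), the largest rise among the members and number 12 of 19938 genes in order of rise. *Slc7a1* (probe set 10535852), the widely expressed arginine carrier CAT1, read 9.53, 9.50 and 9.58 with rGDF11, against 9.11, 9.05 and 9.18 in control. It rose 1.34-fold with no overlap between the groups (adjusted p = 0.0036). *Slc7a3*, the third carrier of this kind, read 4.65 on average over 6 arrays and had a log2 fold change of 0.12 (adjusted p = 0.479). Of the enzymes that use arginine, *Arg1*, arginase 1, rose by 0.45 on the log2 scale from a probe set below the median level (adjusted p = 0.0470), while *Nos2*, the inducible nitric oxide synthase, had −0.02 (adjusted p = 0.924) and *Arg2* had 0.09 (adjusted p = 0.747).

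*Slc7a11* (probe set 10498024) rose as well. It encodes xCT, the light chain that imports cystine in exchange for glutamate and thereby feeds glutathione synthesis. Its values were 8.88, 9.05 and 8.87 with rGDF11, against 7.63, 7.72 and 7.93 in control. All of the rGDF11 arrays were brighter than all of the control arrays, and the fold change was 2.26 (log2 fold change 1.17, standard error 0.09, adjusted p = 0.000143). No rise was called for the enzymes of glutathione synthesis. *Gclc*, the catalytic subunit of glutamate-cysteine ligase, had a log2 fold change of 0.14 (adjusted p = 0.255), its partner *Gclm* −0.22 (adjusted p = 0.0732), and *Gss*, glutathione synthetase, fell by 0.32 on the log2 scale (adjusted p = 0.0336).

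Amino acid shortage is known to raise *Slc7a11* and several other carrier genes through ATF4, a transcription factor that binds C/EBP-ATF response elements. Promoter windows of 300 bases, from 250 before to 50 after the start site, were found in RefSeq (GRCm38.p6) for 47 of the 64 genes, 6 of the 13 that rose and all 3 that fell. The core letters of such an element, TGATGNAA on either strand, where N is any base, occurred in the windows of 2 genes that rose, *Slc7a11* and *Slc1a4*, and of no gene that fell. It also occurred in windows of *Slc7a7* and *Slc6a21*, which did not pass the test. In *Slc7a7*, whose windows may overlap, matches start at −141, −1 and −243 relative to the start sites of its windows. Of all 32851 windows, 3.97% hold these letters, and of the 68 windows of the members 7.35% do, 5 windows of 4 genes. The windows of *Slc7a11* and *Slc1a4* are printed because both genes rose, with the matches in capitals.
*Slc7a11*, chr3:50443564-50443863, minus strand: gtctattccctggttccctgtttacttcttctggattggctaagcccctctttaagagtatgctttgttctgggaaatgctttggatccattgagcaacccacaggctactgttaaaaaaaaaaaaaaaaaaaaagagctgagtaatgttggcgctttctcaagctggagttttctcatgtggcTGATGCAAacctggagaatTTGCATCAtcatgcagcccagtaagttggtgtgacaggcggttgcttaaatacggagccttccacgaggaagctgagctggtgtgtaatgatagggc
*Slc1a4*, chr11:20332664-20332963, minus strand: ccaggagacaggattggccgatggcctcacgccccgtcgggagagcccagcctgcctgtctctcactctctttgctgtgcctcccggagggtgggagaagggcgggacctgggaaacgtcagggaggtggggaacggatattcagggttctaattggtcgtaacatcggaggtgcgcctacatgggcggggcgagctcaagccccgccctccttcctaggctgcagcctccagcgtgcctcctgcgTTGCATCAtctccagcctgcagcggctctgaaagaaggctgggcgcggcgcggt

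The *Slc7a11* window holds the core 2 times, in opposite orientations, starting at −66 and −47 relative to the start site, and the *Slc1a4* window holds it once, at −4. A match is a run of letters and binding was not measured. Other motifs were searched in the same way, on both strands. TGANTCA, the AP-1 site, lay in windows of *Slc7a1*, which rose, and *Slc6a12*, which fell, and of 7 genes that did not pass, in 14.7% of the members' windows and 7.81% of all windows. TGACNNNGC, the core of the antioxidant response element, lay in windows of *Slc7a1*, *Slc7a6* and *Slc36a1*, which rose, and *Slc6a13*, which fell, and of 5 genes that did not pass, in 16.2% of the members' windows and 12.4% of all windows. CACGTG, the E box, lay in the window of *Slc36a1*, where 1 copy shares its last letters, TG, with the TGACNNNGC match, and in windows of 8 genes that did not pass. It was found in 13.2% of the members' windows and 7.15% of all windows. GTCTAGAC, the Smad palindrome, lay in 0 of the 68 members' windows and in 0.213% of all windows.

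The heavy chain that xCT shares with 5 other light chains did not pass the test. *Slc3a2* (probe set 10465772) encodes 4F2hc, also called CD98, which carries these light chains to the surface. Its values were 12.15, 12.14 and 12.19 with rGDF11, against 12.06, 12.03 and 12.06 in control. The groups did not overlap, and the log2 fold change was 0.11 (adjusted p = 0.264), with a 95% interval of −0.02 to 0.24 that is not adjusted for the number of genes. The call was made with a variance trend (adjusted p = 0.023) and by the methods' t-test (0.0406), within a range of 0.023 to 0.47 over all alternatives. The heavy chain of the kidney, *Slc3a1*, read 4.64, 4.69 and 4.71 with rGDF11 and 4.79, 4.72 and 4.61 in control, with overlapping groups (log2 fold change −0.03, adjusted p = 0.845).

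Of its 6 light chains on the array 3 rose, xCT among them, and 3 did not pass. Beside this, 7.49% of all genes rose, and 12.5% of genes above the median level, where all of these light chains except *Slc7a10* lie. *Slc7a5* (probe set 10582275), or LAT1, the exchanger that brings in leucine and other large neutral amino acids, read 11.71, 11.71 and 11.80 with rGDF11, against 11.21, 11.20 and 11.35 in control. It rose 1.40-fold (adjusted p = 0.00256). *Slc7a8*, or LAT2, which carries similar cargo, read 11.06, 10.87 and 10.88 with rGDF11 and 10.84, 10.72 and 10.86 in control. Its rGDF11 arrays were all above the control arrays by a narrow margin, and the log2 fold change of 0.13 did not pass (adjusted p = 0.339, 95% interval −0.05 to 0.32). *Slc7a6* (probe set 10574985), or y+LAT2, which exports arginine in exchange for glutamine and sodium, read 9.21, 9.29 and 9.28 with rGDF11, against 8.77, 8.75 and 8.93 in control, and rose 1.36-fold (adjusted p = 0.00436). Its relative *Slc7a7*, or y+LAT1, read 7.58, 7.43 and 7.43 with rGDF11 and 7.50, 7.58 and 7.43 in control, so the groups overlapped (log2 fold change −0.02, adjusted p = 0.883, 95% interval −0.20 to 0.15). *Slc7a10*, or Asc-1, a carrier of small neutral amino acids, read 5.65, 5.64 and 5.84 with rGDF11 and 5.59, 5.26 and 5.56 in control, with no overlap (log2 fold change 0.24, adjusted p = 0.19). Whether 1 light chain changed more than another was not tested. *Slc7a6os*, on the strand opposite *Slc7a6*, had a log2 fold change of 0.13 (adjusted p = 0.26).

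**Figure D2:**
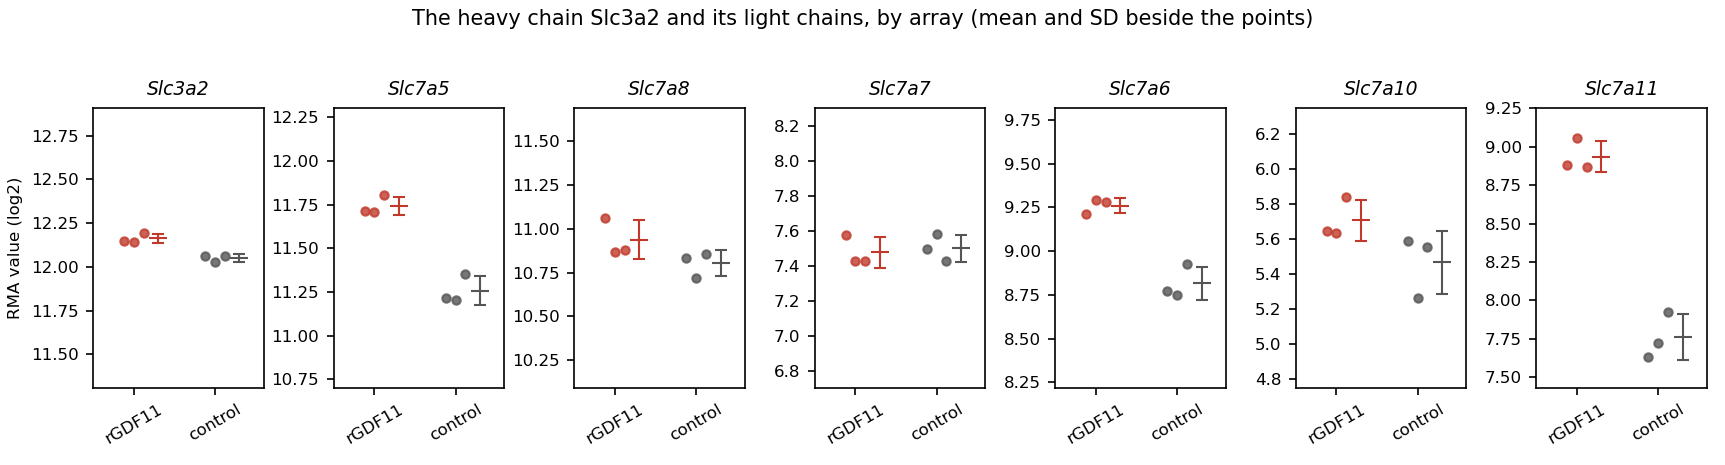
RMA values (log2, vertical axis) of the heavy chain *Slc3a2* and its light chains in BMMs with rGDF11 (red) and in control BMMs (grey), all with M-CSF and RANKL. Points are arrays, bars give mean and SD over 3 arrays, and each panel has its own range. The groups overlap only for *Slc7a7*, while over all genes every rGDF11 array lay above every control array in 16.7% of cases. *Slc7a11*, *Slc7a5* and *Slc7a6* rose, while *Slc3a2*, which differs by 0.11, *Slc7a8*, *Slc7a10* and *Slc7a7* did not pass.

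Of 7 Slc1a genes 2 rose, both carriers of small neutral amino acids. That is 28.6%, beside 7.49% of all genes. *Slc1a5* (probe set 10550332), or ASCT2, a main route of glutamine entry, read 10.15, 10.19 and 10.25 with rGDF11, against 9.60, 9.55 and 9.64 in control. Its fold change was 1.51 (adjusted p = 0.000542). *Slc1a4* (probe set 10384539), or ASCT1, which carries serine, alanine and cysteine, read 7.70, 7.67 and 7.77 with rGDF11, against 7.32, 7.38 and 7.45 in control, and rose 1.26-fold (adjusted p = 0.012). The groups did not overlap for either gene. The 5 glutamate carriers of the same family, *Slc1a1*, *Slc1a2*, *Slc1a3*, *Slc1a6* and *Slc1a7*, all read below the median level and had log2 fold changes of 0.05 to 0.24, none past the test.

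Of 11 Slc38a genes 1 rose, or 9.09%, near the 7.49% of all genes. *Slc38a1* (probe set 10431874), or SNAT1, which takes up glutamine, read 10.51, 10.55 and 10.53 with rGDF11, against 10.24, 10.31 and 10.25 in control. The groups did not overlap and the fold change was 1.20 (adjusted p = 0.0202), while a second, dimmer probe set of the gene had a log2 fold change of 0.40 (adjusted p = 0.00845) against 0.26 for the brighter one. *Slc38a2*, or SNAT2, the carrier best known for its response to amino acid shortage, lies next to *Slc38a1* in the genome. It read 11.93, 11.87 and 11.95 with rGDF11 and 11.98, 11.92 and 12.04 in control, with overlapping groups (log2 fold change −0.06, adjusted p = 0.596, 95% interval −0.21 to 0.08). *Slc38a9*, the lysosomal carrier that reports arginine to mTORC1, read 8.89, 8.85 and 8.83 with rGDF11 and 8.99, 9.09 and 8.91 in control, lower on every rGDF11 array without passing (log2 fold change −0.14, adjusted p = 0.236). Its dimmer probe set had a log2 fold change of 0.02 (adjusted p = 0.923). *Slc38a10* (0.16), *Slc38a6* (0.00) and *Slc38a7* (−0.05), a lysosomal glutamine carrier, gave adjusted p values of 0.141, 0.99 and 0.709. For *Slc38a10* every rGDF11 array lay above every control array (unadjusted 95% interval 0.015 to 0.30). It was called when only probe sets above the median level were tested (adjusted p = 0.0388), within a range of 0.0388 to 0.307 over all alternatives.

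The Slc36a family went both ways. *Slc36a2* (probe set 10386020), or PAT2, a carrier of glycine and proline known from kidney and muscle, read 7.06, 6.83 and 6.86 with rGDF11, against 5.98, 5.74 and 5.73 in control. All rGDF11 arrays were above the control arrays, with a fold change of 2.14 (log2 fold change 1.10, standard error 0.10, adjusted p = 0.000229). *Slc36a1* (probe set 10376216), or PAT1, which exports amino acids from lysosomes, read 8.64, 8.61 and 8.72 with rGDF11, against 8.40, 8.41 and 8.42 in control, a fold change of 1.19 (adjusted p = 0.0308). *Slc36a4* (probe set 10583326), or PAT4, a carrier with high affinity for proline and tryptophan, read 9.88, 9.90 and 9.86 with rGDF11, against 10.11, 10.18 and 10.17 in control. It was 1.21-fold lower, again with no overlap (adjusted p = 0.0175). *Slc36a1*, *Slc36a2* and *Slc36a3* stand side by side on chromosome 11, and *Slc36a3* read 4.82 on average with a log2 fold change of 0.12 (adjusted p = 0.731).

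The Slc6a family held the largest fall among the members, beside 2 rises. Of its 20 carriers 10% rose and 10% fell, near the 7.49% and 9.13% of all genes. *Slc6a12* (probe set 10541333) encodes BGT1, which takes up the osmolyte betaine and GABA. It read 10.10, 9.56 and 10.14 with rGDF11, against 11.00, 10.79 and 11.07 in control, so that replicate 2 was the lowest array of each group. The gene was 2.03-fold lower (log2 fold change −1.02, standard error 0.16, adjusted p = 0.00372), and without rGDF11 replicate 2 its log2 fold change was −0.84. *Slc6a13* (probe set 10541318), or GAT2, its neighbour on chromosome 6, is also a GABA carrier and read 5.37, 5.47 and 5.25 with rGDF11, against 5.65, 5.62 and 5.62 in control, 1.21-fold lower (adjusted p = 0.0416). The probe set of *Slc6a13* lay below the median level. *Slc6a6*, or TauT, which takes up taurine, another osmolyte, read 12.07, 12.05 and 12.02 with rGDF11 and 12.24, 12.22 and 12.29 in control. Its groups did not overlap, and its log2 fold change of −0.20 lay just outside the threshold (adjusted p = 0.0534). The call was made when only probe sets above the median level were tested (adjusted p = 0.0103), with a variance trend (0.000433) and by the methods' t-test (0.0207), within a range of 0.000433 to 0.151 over all alternatives.

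*Slc6a4* (probe set 10378816), the serotonin transporter, read 9.23, 9.26 and 9.37 with rGDF11, against 7.99, 8.27 and 8.28 in control. It rose 2.16-fold (log2 fold change 1.11, standard error 0.09, adjusted p = 0.000169). *Slc6a8* (probe set 10600210), the creatine transporter, read 11.07, 11.01 and 11.09 with rGDF11, against 10.14, 10.08 and 10.22 in control, and rose 1.88-fold (adjusted p = 8.96e-05). For both genes every rGDF11 array lay above every control array. *Slc6a9*, the glycine transporter GlyT1, had a log2 fold change of 0.10 (adjusted p = 0.391), and *Slc6a17*, a vesicular carrier of neutral amino acids, 0.06 (adjusted p = 0.597). The other members of the family read below the median level and did not pass, among them the dopamine transporter *Slc6a3* (0.08, adjusted p = 0.738) and the noradrenaline transporter *Slc6a2* (0.11, adjusted p = 0.486). The near-identical *Slc6a20a* (−0.01, adjusted p = 0.978) and *Slc6a20b* (−0.32, adjusted p = 0.222) may share signal on the array.

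Of the Slc43a genes, *Slc43a3* (probe set 10473384), which carries purine nucleobases rather than amino acids, read 11.09, 11.05 and 11.22 with rGDF11, against 10.70, 10.68 and 10.81 in control. It rose 1.31-fold (adjusted p = 0.00941). *Slc43a1*, or LAT3 (0.18, adjusted p = 0.367), and *Slc43a2*, or LAT4 (0.06, adjusted p = 0.625), which carry leucine and other large neutral amino acids, did not pass.

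**Figure D3:**
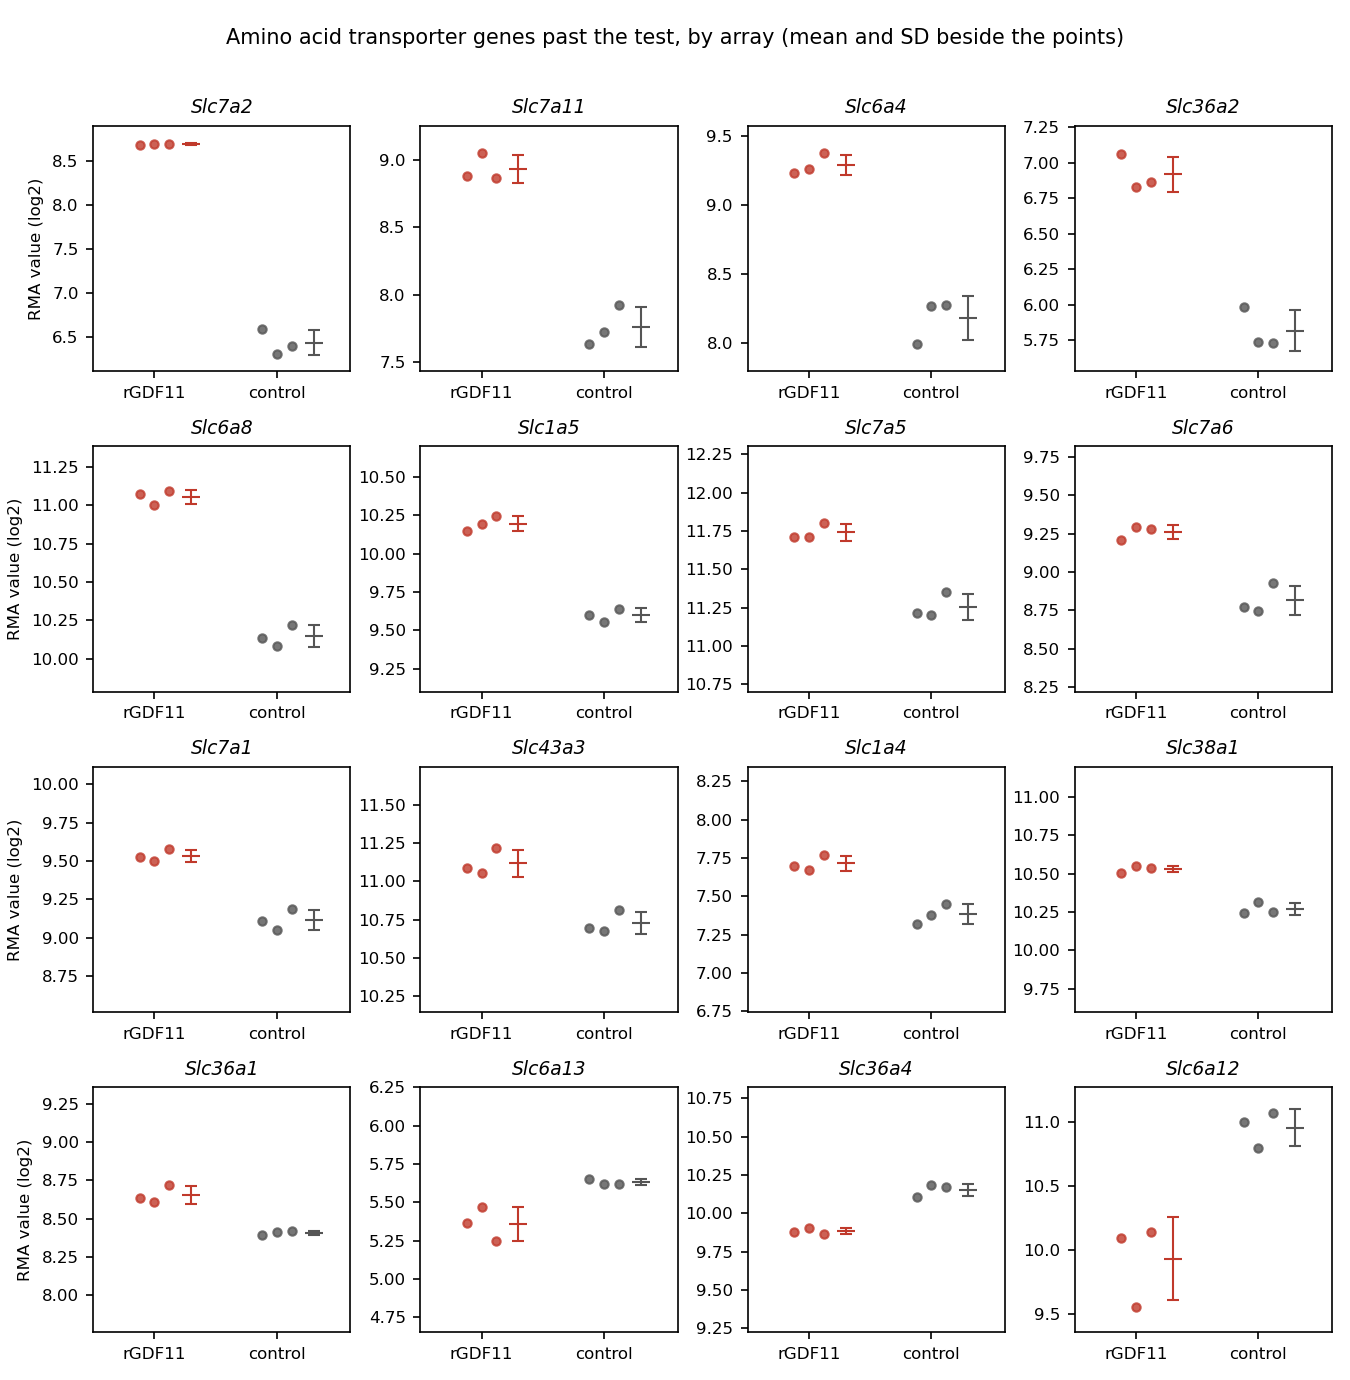
RMA values (log2, vertical axis) of the 16 genes that passed the test, with rGDF11 (red) beside control (grey). Points are arrays, bars give mean and SD over 3 arrays, and each panel has its own range. The groups overlap for none of the 16, which is no further support because the calls rest on the same values. The first 13 panels show genes that rose and the last 3 genes that fell.

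**Figure D4:**
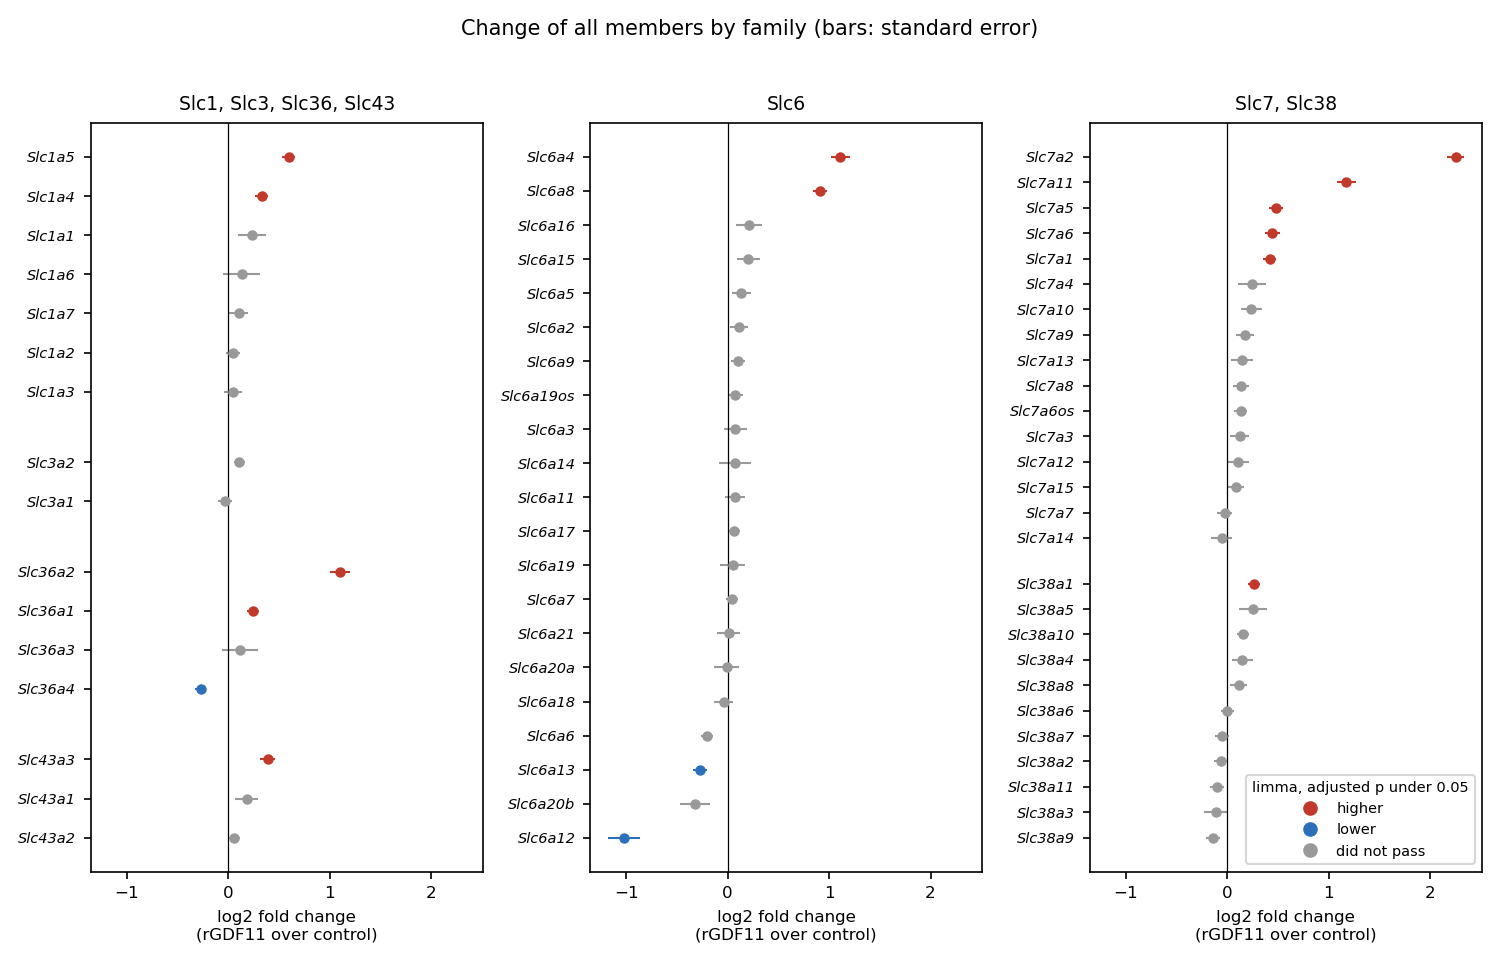
Log2 fold change (rGDF11 over control, horizontal axis) of all 64 members with limma's standard error, grouped by family. Red genes rose and blue genes fell; red points run from 0.25 for *Slc36a1* to 2.25 for *Slc7a2*, and the 48 grey genes lie between −0.32 and 0.26.

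All of the 13 rising genes had every rGDF11 array above every control array, and all of the 3 falling genes had every rGDF11 array below. The calls rest on the same array values, so these separations are no further support for them. Over the 64 members these separations were seen 17 and 5 times, and over all genes in 16.7% and 17% of cases. With 3 arrays against 3 an exact permutation test of a single gene cannot go below a two-sided p of 0.1. Leaving out any 1 array left the call of 12 of the 16 genes in place. The count of rising members was then 11 to 12 and that of falling members 1 to 3. Over all genes 4.98% to 5.98% rose and 6.36% to 7.76% fell in these runs. *Slc36a1* lost its call without any single array (adjusted p = 0.0512 to 0.0926). *Slc38a1* kept its call only without control replicate 2, *Slc6a13* only without rGDF11 replicate 2, and *Slc36a4* only without control replicate 1 or rGDF11 replicate 2, with adjusted p values of 0.0421 to 0.0686, 0.0321 to 0.114 and 0.0328 to 0.0659.

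Other genes that handle amino acids were read from 4 further lists, drawn up from general knowledge of the pathways. Of 35 measured genes of amino acid sensing and mTORC1, 10 fell, 3 rose and 22 did not pass, with a median log2 fold change of −0.06. The falls are 28.6% of the list, beside 9.13% of all genes and 16.2% of genes above the median level, where 33 of the 35 lie. *Sesn1*, a sestrin that restrains mTORC1, read 8.71, 8.54 and 8.42 with rGDF11, against 9.73, 9.83 and 9.73 in control, 2.30-fold lower (adjusted p = 8.39e-05). *Sesn2*, the leucine-sensing sestrin, fell by 0.51 on the log2 scale (adjusted p = 0.00145). The Rag GTPases, which bring mTORC1 to the lysosome, fell in part, *Rragc* by 0.54, *Rragd* by 0.45 and *Rraga* by 0.42 on the log2 scale, whereas *Rragb* had a log2 fold change of −0.06 (adjusted p = 0.755). The probe sets of *Rragd* and *Rragb* lay below the median level. *Castor1*, an arginine sensor, rose by 0.37 on the log2 scale (adjusted p = 0.00844), whereas *Castor2* fell by 0.36 (adjusted p = 0.0118). *Mtor* itself had a log2 fold change of 0.13 (adjusted p = 0.294). The count of 10 falls was 5 to 7 when 1 array was left out. It was 5 without rGDF11 replicate 1, 7 without control replicate 2 and 6 without each of the others. In these runs 6.36% to 7.76% of all genes fell.

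Of 17 measured genes of the amino acid response, through which the kinase GCN2 and ATF4 answer a shortage, 6 fell, 2 rose and 9 did not pass. The falls are 35.3% of the list, beside 9.13% of all genes, and the rises 11.8%, beside 7.49%. Above the median level, where 15 of the 17 lie, 16.2% of genes fell and 12.5% rose. *Atf3*, a stress transcription factor, fell by 1.94, *Nupr1* by 1.09, *Trib3*, an inhibitor of ATF4, by 0.70 and *Ddit3*, which encodes CHOP, by 0.68 on the log2 scale. *Eif2ak4*, which encodes GCN2, rose by 0.63 (adjusted p = 0.00111) and *Gcn1*, its activator, by 0.38 (adjusted p = 0.0112). *Atf4* had a log2 fold change of −0.21 (adjusted p = 0.0693) and *Asns*, asparagine synthetase and a well-known ATF4 target, of −0.01 (adjusted p = 0.910).

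Of 46 measured enzymes of amino acid metabolism, 8 rose, 4 fell and 34 did not pass. The rises are 17.4% of the list, beside 7.49% of all genes, and the falls 8.7%, near the 9.13% of all genes. Of genes above the median level, where 33 of the 46 lie, 12.5% rose and 16.2% fell. *Kynu*, kynureninase of tryptophan breakdown, rose by 0.77 on the log2 scale from a probe set below the median level (adjusted p = 0.00123). *Mtr*, methionine synthase, rose by 0.37 (adjusted p = 0.0329) and *Shmt1*, a serine hydroxymethyltransferase, by 0.34 (adjusted p = 0.0112). Of the other genes of serine and folate metabolism in the list, *Mthfd1* (0.32) and *Shmt2* (0.25) rose, and *Phgdh*, *Psat1*, *Psph*, *Mthfd2*, *Mthfd1l* and *Gldc* did not pass. *Glul*, glutamine synthetase, fell by 0.50 and *Bcat2*, a branched-chain aminotransferase, by 0.46 on the log2 scale. The 8 rises became 4 to 5 when any 1 array was left out. They were 4 without control replicate 2 or rGDF11 replicate 1 and 5 without each of the others. In these runs 4.98% to 5.98% of all genes rose. Of 25 measured amino acid and peptide carriers outside the 7 families, 5 fell, 2 rose and 18 did not pass. The falls are 20% of the list, beside 9.13% of all genes, and the rises 8%, near the 7.49% of all genes. Of genes above the median level, where 15 of the 25 lie, 16.2% fell and 12.5% rose. *Slc15a4*, a lysosomal histidine and peptide carrier, fell by 0.55, the mitochondrial glycine carrier *Slc25a38* by 0.54, the mitochondrial aspartate-glutamate carrier *Slc25a13* by 0.37 and the lysosomal cationic amino acid exporter *Slc66a1* by 0.34 on the log2 scale. *Sfxn1*, the mitochondrial serine carrier, rose by 0.33 and *Slc25a15*, the ornithine carrier, by 0.31, and 1 rise was counted in place of 2 without control replicate 1 or 3 or rGDF11 replicate 2 or 3.

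**Figure D5:**
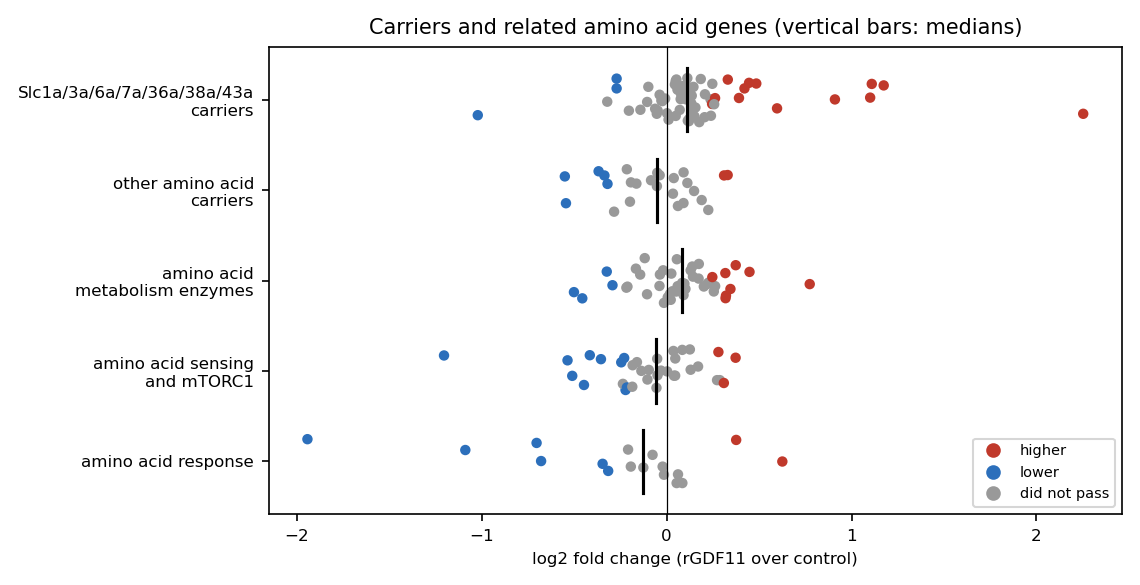
Log2 fold change (rGDF11 over control, horizontal axis) of the 62 carriers and of 4 lists of related genes, 1 point per gene, red for a rise, blue for a fall and grey where the test was not passed. Vertical bars are medians; the carriers reach furthest to the right, to 2.25 for *Slc7a2*, and the amino acid response list furthest to the left, to −1.94 for *Atf3*.

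The arrays were close to each other. Pearson correlations over the tested probe sets, which are not independent, were 0.997 to 0.998 within a group and 0.989 to 0.991 between the groups. Marker lists were summed as log2 values per array. Beside the calls in these lists, 7.49% of all genes rose and 9.13% fell. All 10 macrophage markers read above the median level, and 5 fell while 1 rose, with sums of 106.5 to 107.2 with rGDF11 and 109.8 to 110.0 in control. Of 10 osteoclast markers 6 rose and 1 fell, with sums of 80.2 to 81.2 with rGDF11 and 73.1 to 73.2 in control. In bulk RNA, a change in the number of cells of a type and a change in RNA per cell cannot be told apart. Of 10 neutrophil markers 2 rose (sums 62.5 to 63.3 with rGDF11 and 60.2 to 60.4 in control), of 9 stromal and osteoblast markers 3 rose (52.7 to 53.9 and 49.9 to 51.7) and of 4 megakaryocyte markers 2 fell (28.0 to 28.5 and 29.8 to 30.1). Sums also stood apart for endothelial, mast cell and basophil, and dendritic cell markers, with at most 1 call in each direction per list, and overlapped or met for B cell, T and NK cell, erythroid and adipocyte markers. The part of these cells in the changes of the carriers was not tested. Members at or below the median level averaged 4.91, 4.77 and 4.99 on the rGDF11 arrays and 4.88, 4.75 and 4.82 on the control arrays, with replicate 2 the lowest of each group.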

How the data were processed

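The authors hybridised total RNA of 6 BMM samples to Affymetrix Mouse Gene 1.0 ST arrays and deposited log2 values made by RMA, a method with background correction, quantile normalization and summary of probes into probe sets. The study's methods name Expression Console (Affymetrix) and Affymetrix's Transcriptome Analysis Console, given there and in the submitters' processing notes as version 3.0. Annotation release, Expression Console version and any hybridisation batch: not given in the sources used here. RMA compresses large differences, the table holds no detection calls, and the number of arrays limits the precision.

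Of 35556 probe sets, 21789 had 1 symbol, 1621 several and 12146 none, by the platform annotation, and Entrez identifiers found 21698 of the 21789 in a GRCm38.p6 gene table, with 0 symbols changed. The 23410 with a symbol entered limma 3.58.1 (R 4.3.3; lmFit, then eBayes; two-sided), a step tested on simulated data. The table names no genome build for the array, so positions are given only for RefSeq promoter windows.

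The members and lists were chosen with earlier results of these data known. Named genes are all called members, the heavy and light chains, ASCT and selected SNAT carriers, members above the median level, and up to 6 called genes per list. Other genes are named as background or examples and were chosen after their values were seen. Of the listed genes, 35 of 36, 17 of 18, 46 of 54 and 25 of 28 had a probe set of their own. Alternatives covered the rows tested, the normalization, the variance trend, the methods' t-test, thresholds, probe sets per gene, the replicate number as a block and each array left out.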

Additional observations from a re-analysis of the deposited data

How the results depend on the processing

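All 16 called members kept their direction in every alternative run. The most frequent change was a call lost among small changes, 54 of 287 values of these genes, with *Slc6a12* lost only by the methods' t-test (adjusted p = 0.0562, range 2.14e-05 to 0.0562 over its alternatives). With the fold limit of 1.5 and p under 0.01 before adjustment, by limma or by the methods' t-test, 6 members were higher and 1 was lower. Over all genes these limits gave 2.13% higher and 3.06% lower by limma, and 2% and 2.88% by the t-test. At an adjusted p under 0.01, 10 members were higher and 1 was lower, beside 3.77% and 5.36% of all genes. With each array left out in turn, 11 to 12 members were higher and 1 to 3 lower. Among probe sets above the median level only, 5 of 33 sensing genes rose and 8 of 15 other amino acid carriers fell. The main comparison gave 3 and 5. In the run above the median level 18.6% of all genes tested rose and 22.7% fell, against 7.49% and 9.13% in the main comparison. With arrays left out, sensing genes fell 5 to 7 times and rose 2 to 3 times. Metabolic enzymes then rose 4 to 5 times, and other carriers rose 1 to 2 times. In the same runs 4.98% to 5.98% of all genes rose and 6.36% to 7.76% fell.

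Same-numbered arrays of the groups deviated from their group means with correlations of 0.0635, 0.335 and −0.000832. Differently numbered arrays gave −0.322 to 0.275. The replicate numbers were not taken as pairs in the main comparison, and whether same-numbered arrays share an effect was not tested. With the replicate block 12 members rose and 3 fell, beside 7.32% and 8.69% of all genes, but they were not the same genes. In this run 14 calls were shared, *Slc36a1* (adjusted p = 0.0517) and *Slc6a13* (0.0562) were no longer called, and 1 other gene was called in addition. The sign of small differences turned for *Slc38a6* (−0.013 with arrays shifted to a common median, −0.0065 without control replicate 3, −0.029 without rGDF11 replicate 1, within a left-out range of −0.029 to 0.032), *Slc3a1* (0.014 without control replicate 1, within −0.077 to 0.014) and *Slc7a7* (0.0040 after quantile normalization again, 0.016 without control replicate 2, 0.0016 without rGDF11 replicate 2, 0.0014 without rGDF11 replicate 3, within −0.074 to 0.016). The cause of these shifts was not tested.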
